A study of Homo sapiens with 28 samples.

Results

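The 2 clones of U937 cells labelled p52-/- were compared at rest with 3 control clones (CTR) to ask which messenger RNAs differ when NFKB2, the gene that encodes p100 and its product p52, has been targeted. The members are the 2 untreated p52 libraries and the 3 untreated CTR libraries, chosen by their labels, of 28 libraries in all. U937 is a human monocytic cell line grown here in RPMI1640 with serum. The p52 group carried the knockout of NFKB2, the CTR group had been targeted with non-specific guide RNAs, and neither received lipopolysaccharide (LPS). Both groups carry the 6 h time label. Each library comes from 1 clone, so differences between clones of 1 genotype and the effect of the knockout are read from only 2 and 3 clones. Whether the clones share a parent or a guide is not stated in the sources used here. The other untreated libraries, with p50, cREL and RELB knockouts (2 clones each) and p65 knockouts (3 clones), entered the fit as described below, and the LPS-treated libraries of the same clones were used once, for the named genes.

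In the noncanonical NF-kB pathway, receptors such as the lymphotoxin beta receptor and CD40 stabilise the kinase NIK, which activates IKK alpha. IKK alpha then directs the processing of p100 to p52, which binds DNA mainly as a dimer with RELB. Unprocessed p100 also holds NF-kB dimers in the cytoplasm as an inhibitor of the IkB type. NFKB2 is itself an NF-kB target gene.

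The 3 promoters below are shown because NFKB2 is the targeted gene, CXCL8 had the lowest unadjusted p among the named genes lower in p52 clones, and MST1 had the lowest among the named genes higher in p52 clones. Each is the 250 bases before the gene's start, 5′ to 3′ on the gene's own strand, from RefSeq for build GRCh38.p14. RefSeq and the GENCODE annotation, from which gene positions are given below, place the starts of CXCL8 and MST1 differently, so these 2 windows run into the genes as GENCODE draws them. Capitals mark matches, on either strand, to GGNNNTTCC, a pattern like that of NF-kB sites.
NFKB2, chr10:102393860-102394109, plus strand: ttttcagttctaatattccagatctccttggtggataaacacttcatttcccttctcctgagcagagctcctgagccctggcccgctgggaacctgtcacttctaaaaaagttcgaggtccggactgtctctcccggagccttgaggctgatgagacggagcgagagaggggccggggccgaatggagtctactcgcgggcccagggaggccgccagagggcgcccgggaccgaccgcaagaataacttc
CXCL8, chr4:73740319-73740568, plus strand: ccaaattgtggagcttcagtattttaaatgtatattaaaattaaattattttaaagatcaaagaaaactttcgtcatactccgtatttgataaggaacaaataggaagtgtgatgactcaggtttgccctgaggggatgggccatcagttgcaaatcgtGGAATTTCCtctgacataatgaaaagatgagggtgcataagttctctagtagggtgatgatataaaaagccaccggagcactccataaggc
MST1, chr3:49689475-49689724, minus strand: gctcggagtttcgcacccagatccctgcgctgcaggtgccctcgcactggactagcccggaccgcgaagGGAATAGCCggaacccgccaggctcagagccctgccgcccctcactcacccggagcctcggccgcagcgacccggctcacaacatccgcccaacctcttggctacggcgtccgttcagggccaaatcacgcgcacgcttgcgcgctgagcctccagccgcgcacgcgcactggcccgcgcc
The match in the CXCL8 promoter begins 91 bases before the RefSeq start and that in the MST1 promoter 181 bases before it. Of all 35116 promoters in the RefSeq table, 17.1% held the pattern. Of the 21 genes described first below, 17 had a promoter in the table and 6 of these held it (CCDC22, CXCL8, MST1, NFKB1, REL and TM4SF1). A match is a description of letters and not a bound site.

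The depth of the 5 libraries was 16684985 and 19300056 estimated counts in p52 clones and 16851348, 16790874 and 16033200 in CTR clones. Mitochondrial messenger RNA took 3.83% and 2.97% of the counts in p52 clones and 2.85% to 4.32% in CTR clones. The labels give a sample batch, and it is not shared evenly. The p52 clones were in batch B (replicate 1) and batch A (replicate 2), whereas CTR replicate 2 was in batch B and CTR replicates 1 and 3 were in batch C. Batch A held no control. The first principal component of the 14 untreated libraries, 17.4% of their variance, separated the 4 libraries of batch C from the other 10. Only p52 replicate 1 and CTR replicate 2 could therefore be compared within a batch, 1 library against 1, without a test. The fit with batch as a term gave CTR replicate 2 a weight of -0.643 and CTR replicates 1 and 3 a weight of -0.179 each. It also gave a weight of -0.357 to the library labelled p65 replicate 1, because the p65 knockouts link batches A and C. RELA stood at 53.5 CPM in that library, against 3.8 and 8.5 CPM in p65 replicates 2 and 3, so its RELA level goes against its label. Markers of the monocytic line summed to 6039 to 8495 TPM in p52 clones and to 3361 to 7451 TPM in CTR clones, and 13 of the 14 averaged over 1 TPM. Of the 18 T and NK cell markers, CD3D, CD3E, CD8A and CD8B were at 0 in all 5 libraries. Their sum, led by NKG7, was 378 to 467 TPM in p52 clones and 283 to 531 TPM in CTR clones. The 8 fibroblast markers, of which FAP is the one over 1 TPM and COL3A1 and LUM are at 0, summed to 83.9 to 89.7 TPM in p52 clones and 46.2 to 74.5 TPM in CTR clones. B cell, erythroid, platelet and epithelial lists had at most 2 markers over 1 TPM.

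The messenger RNA of the targeted gene did not separate the groups. NFKB2 (chr10:102394110-102402529, plus strand) stood at 0.84 and 1.53 TPM in p52 clones, against 1.82, 2.87 and 0.77 TPM in CTR clones. CTR replicate 3 was lower than both p52 clones. The fitted log2 fold was -0.94 ± 0.70 (SE) with a 95% interval of -2.48 to 0.60, and edgeR's quasi-likelihood test gave a Benjamini-Hochberg adjusted p of 0.986. Without CTR replicate 2 the log2 fold was 0.06. A short deletion or insertion need not lower the messenger RNA, and the targeted position is not given in the sources used here, so these levels neither check nor contradict the label.

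The 4 other subunit genes were measured beside it. RELB, the usual partner of p52, stood at 2.77 and 4.61 TPM in p52 clones, against 3.80, 14.1 and 5.81 TPM in CTR clones, and the high value of CTR replicate 2 set the CTR mean. Its log2 fold of -1.12 had an adjusted p of 0.977 by edgeR. NFKB1, which encodes p105 and p50, stood at 7.82 and 7.43 TPM in p52 clones and at 5.80, 9.35 and 5.68 TPM in CTR clones, with the p52 clones inside the CTR range. REL, which encodes c-REL, stood at 9.98 and 5.80 TPM in p52 clones, against 10.45, 10.96 and 12.12 TPM in CTR clones. The REL ranges did not overlap, but the log2 fold was -0.34 ± 0.31 (SE) and its adjusted p by edgeR was 1.00. RELA, which encodes p65, stood at 30.9 and 31.4 TPM in p52 clones, against 23.2, 31.1 and 27.1 TPM in CTR clones. No fitted fold is given for RELA, since the p65 knockouts enter the batch terms.

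**Figure D1:**
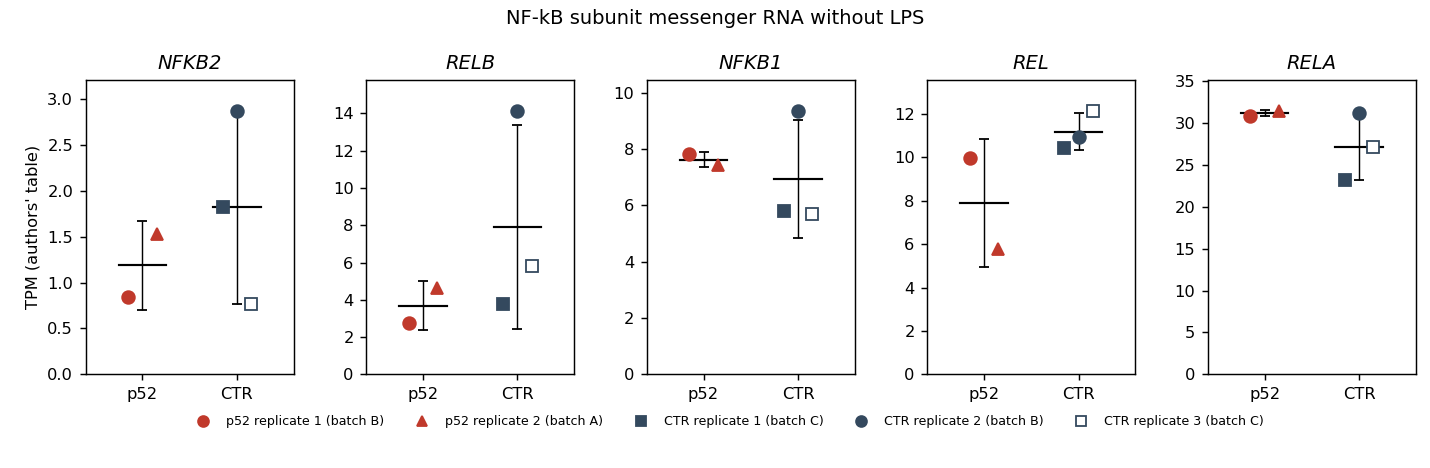
TPM of the 5 NF-kB subunit genes (vertical axes, each from 0) in 2 p52 clones and 3 CTR clones; points are libraries, marker shapes are batches, the open square is CTR replicate 3, and bars are means ± SD. NFKB2 overlaps between the groups, RELB is highest in CTR replicate 2 at 14.1 TPM, and both p52 values of REL lie below the 3 CTR values.

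Across the transcriptome the difference between p52 and CTR clones was not larger than the spread between clones allowed edgeR to call. Of 17369 genes tested, 0 (0%) had an adjusted p under 0.05, and 839 (4.83%) had an unadjusted p under 0.05, 440 higher (2.53%) and 399 lower (2.3%). The lowest adjusted p was 0.276. DESeq2 on the same design called 12 genes, 4 higher and 8 lower, and limma with voom over all 28 libraries, with the clone as a random effect, called 2. The size of effect that these clones can exclude depends on the level of a gene. Among the 9971 genes with a mean of at least 5 CPM, 272 (2.73%) had a log2 fold beyond 1 in either direction and 4777 (47.9%) had a 95% interval that lay wholly within 1 of 0. For the other genes at that level, the interval reaches a change of 2-fold or more. Over all genes the CPM ranges of the 2 groups did not overlap for 3941 (22.7%), with p52 higher for 2212 (12.7%) and lower for 1729 (9.95%). The Pearson correlation of log2 CPM across genes, which are not independent replicates, was 0.960 between the p52 clones, 0.946 to 0.958 between a p52 and a CTR clone and 0.945 to 0.958 among CTR clones. The ranges within CTR and between p52 and CTR thus overlapped.

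**Figure D2:**
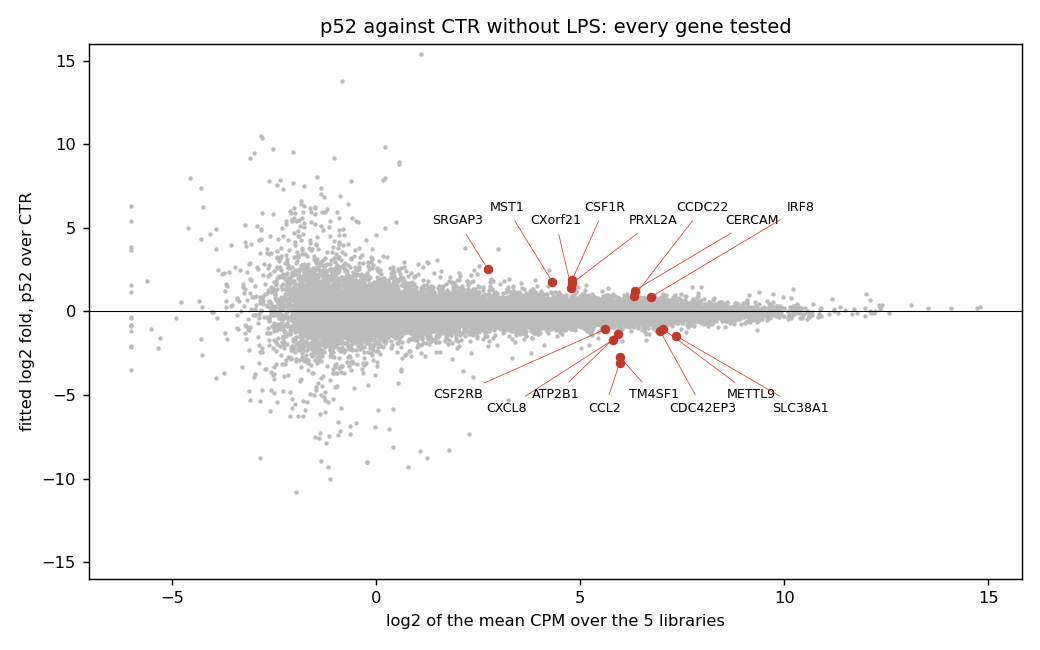
Fitted log2 fold of p52 over CTR (vertical axis) against log2 of the mean CPM over the 5 libraries (horizontal axis, values under the left edge drawn at it) for the 17369 genes tested; red points are the 16 genes described one by one. Folds spread widely at low levels and lie mostly within 1 of 0 from 5 CPM upward.

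Among the genes of lowest unadjusted p with at least 5 CPM, those lower in p52 clones included 2 chemokines. CCL2 (chr17:34255218-34257203, plus strand), the chemokine that attracts monocytes, stood at 15.2 and 17.5 CPM in p52 clones, against 79.9, 135 and 64.9 CPM in CTR clones. Every CTR clone was above both p52 clones, in batch B as in batch C. The log2 fold was -3.10 ± 0.58 (SE), with a 95% interval of -4.37 to -1.82, and edgeR's adjusted p was 0.705. CXCL8 (chr4:73740506-73743716, plus strand), interleukin 8, which attracts neutrophils, stood at 33.8 and 27.4 CPM in p52 clones, against 48.1, 132 and 38.9 CPM in CTR clones. Its groups did not overlap, although CTR replicates 1 and 3 lay close to the p52 clones. The log2 fold of CXCL8 was -1.69 ± 0.31 (SE), with edgeR's adjusted p at 0.705, and DESeq2 gave adjusted p-values of 0.00295 for CXCL8 and 0.000124 for CCL2.

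Of the other 6 genes on that side, 5 kept groups that did not overlap in CPM, which is a description, since the genes were picked for low p and 9.95% of all genes did so. SLC38A1, a transporter of glutamine, stood at 89.6 and 101 CPM in p52 clones, against 209, 229 and 190 CPM in CTR clones. The spread within each group was small beside the gap, and the log2 fold was -1.47 with edgeR's adjusted p at 0.705 and that of limma with voom at 0.0367. CSF2RB, the beta chain shared by the receptors for GM-CSF, interleukin 3 and interleukin 5, stood at 34.3 and 35.4 CPM in p52 clones, against 47.2, 80.1 and 48.0 CPM in CTR clones. ATP2B1, a calcium pump of the plasma membrane, stood at 34.2 and 33.0 CPM in p52 clones, against 74.1, 86.8 and 76.9 CPM in CTR clones. These 2 genes differed little between the p52 clones, and their log2 folds were -1.07 and -1.37. CDC42EP3, an effector of the GTPase CDC42, stood at 78.5 and 64.2 CPM in p52 clones, against 179, 160 and 138 CPM in CTR clones. METTL9, a histidine methyltransferase, stood at 68.1 and 40.3 CPM in p52 clones, against 201, 151 and 193 CPM in CTR clones. Neither overlapped, and their log2 folds were -1.15 and -1.05. The p50, cREL and RELB clones also lay below every CTR clone in ATP2B1 (31.1 to 63.1 CPM), CDC42EP3 (43.5 to 130 CPM) and METTL9 (58.6 to 135 CPM). The lower level of these genes is thus not particular to p52 clones. In SLC38A1 (108 to 200 CPM) and CSF2RB (39.6 to 70.7 CPM) those knockout clones overlapped the CTR clones. TM4SF1, a membrane protein with 4 passes, is unlike the rest. It stood at 28.6 and 16.6 CPM in p52 clones, against 3.1, 264 and 2.0 CPM in CTR clones, so that both p52 clones lay above 2 controls and below the third. Its log2 fold of -2.73 rests on CTR replicate 2. Without that library the fit with batch gave -0.77, although both p52 clones lay above the 2 remaining CTR clones. The sign of that value is thus not the direction of the CPM.

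On the higher side, 3 of the 8 genes separated the groups, as did 12.7% of all genes, and these 8 too were picked for low p. MST1 (chr3:49683947-49689501, minus strand) encodes macrophage-stimulating protein, the ligand of the receptor kinase RON. It stood at 39.3 and 28.1 CPM in p52 clones, against 13.8, 10.9 and 7.8 CPM in CTR clones. The groups did not overlap, and the log2 fold was 1.75 ± 0.32 (SE), with a 95% interval of 1.04 to 2.46, edgeR's adjusted p at 0.705, DESeq2's at 0.00130 and limma's with voom at 0.0367. Reads of MST1 can be shared with near-identical copies. Of these, MST1P2 stood at 3.95 and 4.03 TPM in p52 clones, against 1.329, 0.998 and 1.505 TPM in CTR clones, so the split between the copies is uncertain. PRXL2A, a peroxiredoxin-like protein, stood at 47.0 and 41.3 CPM in p52 clones, against 22.4, 13.1 and 15.8 CPM in CTR clones. SRGAP3 stood at 11.6 and 9.4 CPM in p52 clones, against 5.4, 1.2 and 5.5 CPM in CTR clones. These 2 genes also kept separate groups, with log2 folds of 1.68 and 2.56. The p50, cREL and RELB clones ran from 17.1 to 38.1 CPM in PRXL2A and from 4.4 to 9.8 CPM in SRGAP3. In both genes they reached from within the CTR range to above it.

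For the other 5 genes CTR replicate 1 reached the range of the p52 clones, as did CTR replicate 3 in IRF8 and CCDC22. CSF1R, the receptor for macrophage colony-stimulating factor, stood at 50.7 and 27.4 CPM in p52 clones, against 36.1, 11.9 and 13.5 CPM in CTR clones. Its log2 fold was 1.87 ± 0.49 (SE) and, with no batch term, 0.93. IRF8, a transcription factor of the monocyte lineage, stood at 114 and 125 CPM in p52 clones, against 118, 60.4 and 115 CPM in CTR clones. CERCAM, named as a cell adhesion molecule, stood at 109 and 93.5 CPM in p52 clones, against 95.04, 39.0 and 67.0 CPM in CTR clones. In both genes CTR replicate 2 was the low library, and the log2 folds of 0.86 and 1.25 were 0.29 and 0.59 with no batch term. CXorf21, which encodes an adaptor of endolysosomal Toll-like receptor signalling, stood at 45.9 and 27.8 CPM in p52 clones, against 28.8, 12.7 and 22.4 CPM in CTR clones. CCDC22, a subunit of an endosomal sorting complex, stood at 89.3 and 83.6 CPM in p52 clones, against 89.2, 43.2 and 95.1 CPM in CTR clones. Their log2 folds were 1.42 and 0.91, and that of CCDC22 was 0.19 with no batch term. CTR replicate 2 was the lowest of the 5 libraries in each of these 5 genes, though CTR replicate 3 was nearly as low in CSF1R, and batch and clone cannot be told apart. The gene of lowest adjusted p, RGPD6, chosen for mention after its values were seen, falls under the level set for naming. It stood at 0 and 0.411 TPM in p52 clones and at 1.45, 2.25 and 1.82 TPM in CTR clones, and has the near-identical copy RGPD5, at 12.4 and 12.3 TPM in p52 clones and at 4.40, 11.9 and 14.7 TPM in CTR clones.

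**Figure D3:**
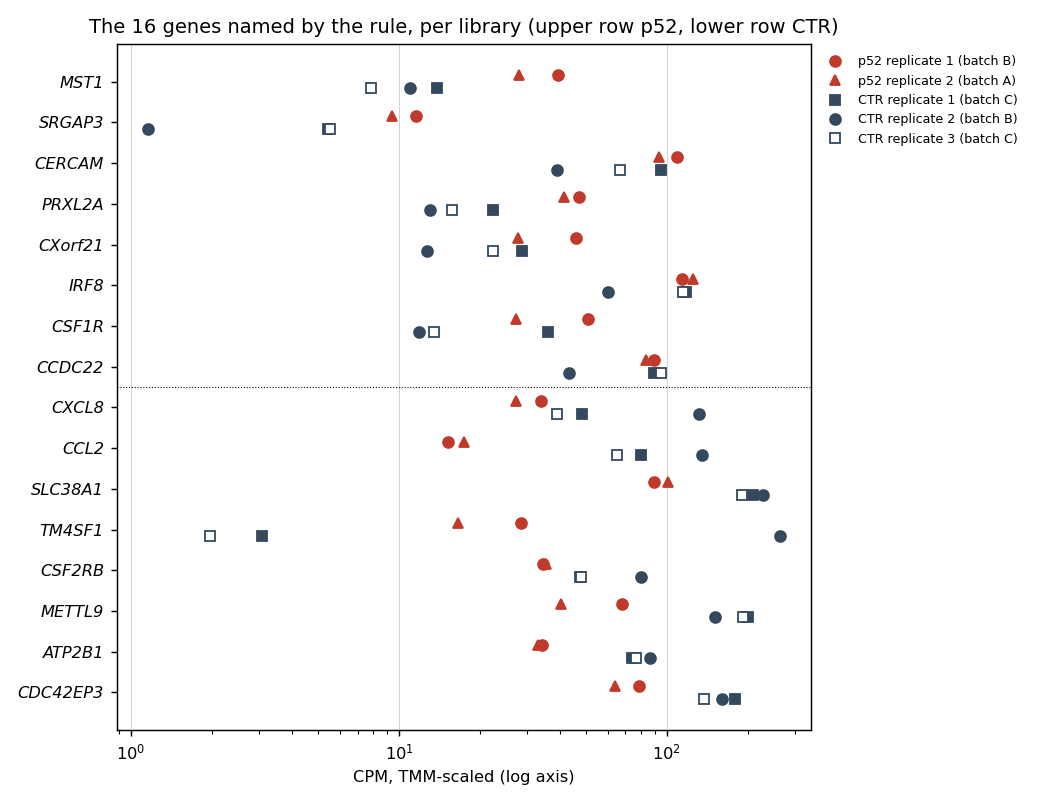
CPM (log axis) of the 8 genes of lowest unadjusted p on each side, p52 higher above the dotted line and p52 lower below it; in each pair of rows the upper holds the 2 p52 clones and the lower the 3 CTR clones, and shapes are batches (open square, CTR replicate 3). CCL2 and SLC38A1 show a clear gap, whereas TM4SF1 has p52 clones at 28.6 and 16.6 CPM between the CTR clones.

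As over all genes, no member of the pathway that p52 belongs to was called. An unadjusted p under 0.05 was met by 4.83% of all genes. Of 21 noncanonical pathway genes tested, of 22 listed, 9 had a log2 fold above 0, as did 48.7% of all genes, and 0 had an unadjusted p under 0.05. Their median log2 fold was -0.07, beside -0.02 over all genes. MAP3K14, which encodes NIK, stood at 7.2 and 8.6 CPM in p52 clones, against 8.9, 5.8 and 8.3 CPM in CTR clones. LTBR, the lymphotoxin beta receptor, stood at 122 and 134 CPM in p52 clones, against 192, 123 and 148 CPM in CTR clones. CHUK, which encodes IKK alpha, stood at 38.1 and 29.3 CPM in p52 clones, against 19.2, 53.2 and 27.8 CPM in CTR clones. In all 3 genes the groups overlapped. TNFRSF1A and TNFRSF1B, the receptors for TNF, had log2 folds of 0.34 and -0.68. Of 18 genes reported elsewhere as noncanonical targets, 9 passed the filter on low counts, with a median of 0.14 and 0 at an unadjusted p under 0.05. SKP2, a cell cycle ubiquitin ligase subunit, TNFSF13B, which encodes BAFF, and BCL2L1, which encodes BCL-XL, had log2 folds of -0.07, -0.51 and 0.14. Of the 17 IkB family and feedback inhibitors, 11 had a log2 fold below 0 (51.3% of all genes did), with a median of -0.31 and 0 at an unadjusted p under 0.05. NFKBIA, which encodes IkB alpha, stood at 58.4 and 28.9 CPM in p52 clones, against 68.8, 72.7 and 51.9 CPM in CTR clones, and the groups overlapped. TNFAIP8 and COMMD1 in that list had log2 folds of 0.38 and 0.23.

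In the list of proliferation genes 0 of 39 members passed the test. Of the 39, 31 had a log2 fold below 0 (51.3% of all genes did), 10 were lower at an unadjusted p under 0.05 (2.3% of all genes were) and 0 were higher. For 17 members both p52 clones lay below all CTR clones, as they did for 9.95% of all genes. The list's median log2 fold was -0.33, and its mean log2 CPM was 6.71 and 6.95 in p52 clones, against 7.36, 7.20 and 7.22 in CTR clones. MKI67, which encodes the Ki-67 antigen, stood at 109 and 117 CPM in p52 clones, against 202, 213 and 194 CPM in CTR clones. AURKB, a mitotic kinase, stood at 49.4 and 71.4 CPM in p52 clones, against 160, 129 and 143 CPM in CTR clones. MYBL2, a transcription factor of late cell cycle genes, stood at 35.5 and 30.6 CPM in p52 clones, against 77.9, 74.8 and 64.8 CPM in CTR clones. In these 3 genes the p52 clones stood below the controls of both batches, with log2 folds of -0.64, -1.01 and -0.94. The other 7 were TOP2A, CDK1, CCNA2, CCNB2, CDC20, AURKA and PLK1, all of them genes of DNA topology or the mitotic cycle. The members of highest level, CCND3, PCNA and RRM2, had log2 folds of -0.17, -0.21 and -0.13. The count rests on a few libraries. Without CTR replicate 2 the median was -0.06 and 0 of 39 had an unadjusted p under 0.05, and without p52 replicate 1 the median was -0.22 and 1 did. EZH2, the methyltransferase of Polycomb repressive complex 2, which is in the list of 23 chromatin genes, stood at 67.3 and 66.9 CPM in p52 clones, against 121, 106 and 110 CPM in CTR clones. Its log2 fold was -0.59, it was the 1 chromatin gene at an unadjusted p under 0.05, and the list's median was -0.05. RBBP4, HDAC2 and RBBP7 in that list had log2 folds of -0.05, -0.15 and -0.05.

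**Figure D4:**
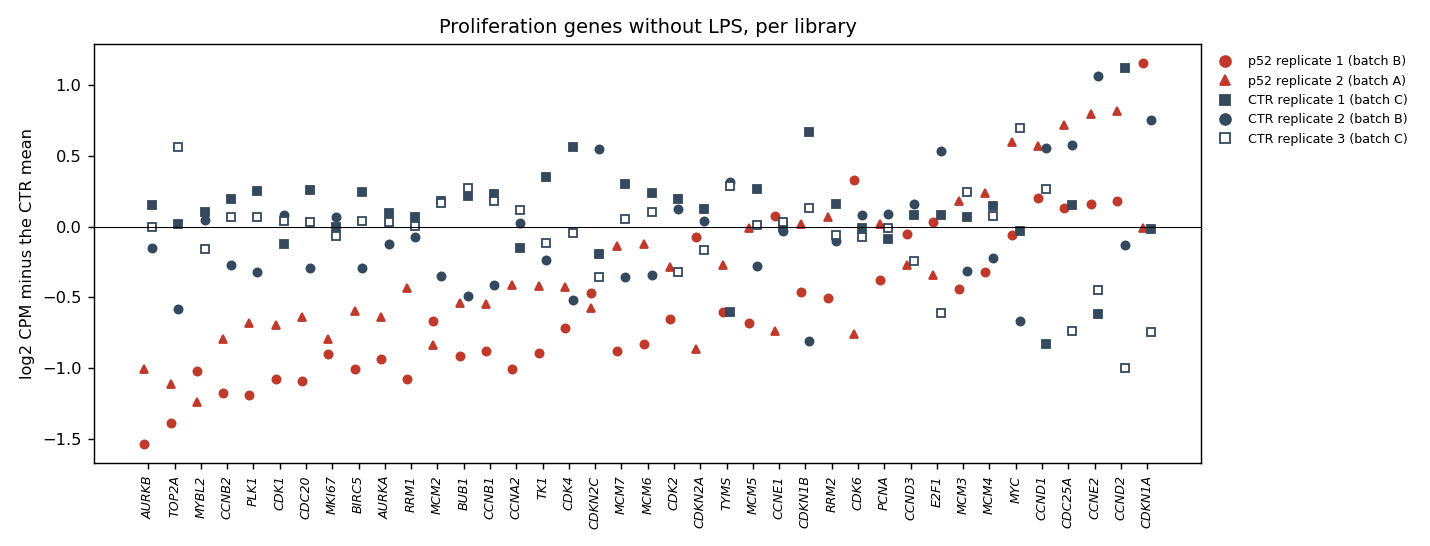
log2 CPM minus the mean of the 3 CTR clones (vertical axis) for the 39 proliferation genes, ordered by the p52 mean; points are libraries, with p52 left of CTR for each gene and shapes for batches (open square, CTR replicate 3). For 17 of the 39 genes both p52 clones lie below all 3 CTR clones.

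In the list of lysosome and autophagy genes 0 of 29 members passed the test. Of the 29, 21 had a log2 fold above 0 (48.7% of all genes did), 6 were higher at an unadjusted p under 0.05 (2.53% of all genes were) and 0 were lower, with a median of 0.24 and, with no batch term, 0.11. For 8 members both p52 clones lay above all CTR clones, as they did for 12.7% of all genes. For 3 they lay below them, as for 9.95% of all genes. HEXA, the alpha subunit of beta-hexosaminidase, stood at 381 and 408 CPM in p52 clones, against 217, 244 and 292 CPM in CTR clones. PSAP, the precursor of the saposins, stood at 936 and 1041 CPM in p52 clones, against 503, 720.4 and 601 CPM in CTR clones. Both genes kept separate groups, with log2 folds of 0.77 and 0.62. CTSD, a lysosomal protease among the 6, stood at 3573 and 4979 CPM in p52 clones, against 6048, 1790.4 and 4081 CPM in CTR clones, and overlapped. Its log2 fold was 1.04 and, in the 5 p52 and CTR libraries alone, 0.12. GAA, the acid alpha-glucosidase, and MCOLN1, a lysosomal ion channel, were also among the 6 and had log2 folds of 0.76 each, and CTSB and SQSTM1 had 0.35 and -0.33. Without p52 replicate 2 the count was 1 of 29, and without CTR replicate 2 it was 2.

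Differentiation genes of the monocyte and granulocyte lineages had positive medians in the fit with batch. Beside the counts here, 48.7% of all genes had a log2 fold above 0, and 2.53% were higher and 2.3% lower at an unadjusted p under 0.05. Of 26 monocyte and macrophage genes, 18 had a log2 fold above 0, 2 were higher at an unadjusted p under 0.05 (CSF1R and ANPEP), and the median was 0.35. It was -0.02 with no batch term. ANPEP, the surface aminopeptidase CD13, stood at 443 and 270 CPM in p52 clones, against 169, 121 and 246 CPM in CTR clones, with no overlap and a log2 fold of 1.49. LYZ, CD36 and LGALS3, the most abundant members, had log2 folds of 0.83, 0.98 and -0.11. Of 16 promyelocyte granule genes, 12 had a log2 fold above 0, with a median of 0.73 (0.22 with no batch term) and 0 at an unadjusted p under 0.05. ELANE, neutrophil elastase, stood at 1912 and 1259.8 CPM in p52 clones, against 1304, 499 and 1015 CPM in CTR clones. CST7 and CTSG had log2 folds of 0.30 and 0.43. CSF3R, the receptor for G-CSF, stood at 103 and 113 CPM in p52 clones, against 59.3, 47.8 and 69.4 CPM in CTR clones. Its groups did not overlap, its log2 fold was 1.21, and the 32 myeloid surface receptors had a median of 0.05, with 1 higher and 2 lower at an unadjusted p under 0.05. FCER1G, CXCR4 and CD93 in that list had log2 folds of -0.64, -0.08 and 0.28. The 27 myeloid transcription factors had a median of 0.11, with IRF8 higher and ID3 lower at an unadjusted p under 0.05, and MEIS1, ID2 and KLF6 had -0.45, 0.60 and -0.35.

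Inflammatory and interferon genes are given beside the 4.83% of all genes, 2.53% higher and 2.3% lower, that had an unadjusted p under 0.05. Of 14 chemokines tested, of 21 listed, CCL2 and CXCL8 were the 2 at an unadjusted p under 0.05, and the median was -0.16. CCL5 stood at 107 and 90.8 CPM in p52 clones, against 104, 86.4 and 76.2 CPM in CTR clones, a log2 fold of 0.01. The 16 cytokines had a median of -0.08 and 0 at an unadjusted p under 0.05, and IL32, IL18 and IL16 had log2 folds of 0.06, -0.09 and 0.63. The 45 interferon-stimulated genes had a median of -0.43 and 0 at an unadjusted p under 0.05, but 1 control stood apart. Their mean log2 CPM was 2.73 and 2.45 in p52 clones, against 4.58, 2.63 and 2.66 in CTR clones. Without CTR replicate 1, the high library, the median was 0.24. IFI6 stood at 22.9 and 15.4 CPM in p52 clones, against 171, 17.6 and 13.0 CPM in CTR clones, and BST2 and LY6E had log2 folds of 0.10 and 0.33. The 29 genes of Toll-like receptor 4 and innate sensing had a median of -0.09, with TLR1 and TLR6 lower at an unadjusted p under 0.05, and MYD88, IRAK1 and PYCARD had -0.03, 0.19 and 0.12. The 20 MHC class I genes had a median of 0.13, with TAPBPL and ERAP1 higher at an unadjusted p under 0.05, and B2M, PDIA3 and CALR had -0.20, 0.14 and 0.41. The 17 MHC class II genes had a median of -0.13, with 0 at an unadjusted p under 0.05. HLA-DRA, CD74 and RFXANK there had -0.21, 0.29 and 0.23.

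Stress, metabolic and other genes are given last, beside the same 2.53% of all genes higher and 2.3% lower at an unadjusted p under 0.05. Of 24 genes of the unfolded protein and integrated stress responses, 3 were lower at an unadjusted p under 0.05 and the median was -0.06. TRIB3, a pseudokinase induced by amino acid stress, stood at 119 and 97.3 CPM in p52 clones, against 172, 329 and 252 CPM in CTR clones. SLC7A11, the cystine transporter, stood at 37.4 and 22.2 CPM in p52 clones, against 15.8, 102 and 17.4 CPM in CTR clones. TRIB3 separated the groups and SLC7A11 did not. For SLC7A11, with a log2 fold of -1.42, both p52 clones lay above CTR replicates 1 and 3 and below CTR replicate 2. DDIT3 was the third gene counted as lower. HSP90B1 and HSPA5, the abundant chaperones, had log2 folds of 0.10 and 0.32. The 29 immediate early and heat shock genes had a median of -0.65 (-0.08 in batches A and B alone), with EGR1 and HSPA1A higher and IER5 lower at an unadjusted p under 0.05. EGR1, an immediate early transcription factor, stood at 9.04 and 5.26 CPM in p52 clones, against 1.35, 1.56 and 0.198 CPM in CTR clones. HSPA8, DNAJB1 and HSPH1 had log2 folds of 0.41, -0.02 and 0.16. In the list of 27 cholesterol genes the median was -0.12, with INSIG1 and STARD4 lower at an unadjusted p under 0.05 and EBP, FDPS and FDFT1 at -0.16, -0.06 and -0.17. The 30 glycolysis and hypoxia genes had a median of -0.01, with GAPDH, ENO1 and ALDOA at -0.09, -0.10 and 0.23. The 13 mitochondrial messenger RNAs had a median of -0.01, with MT-ND4L, MT-CO3 and MT-CO1 at -0.01, 0.04 and 0.38. The 25 survival genes had a median of -0.15, with PIM1, BCL2A1 and BID at -0.37, -1.38 and -0.13. The 22 adhesion genes had a median of -0.09, with 2 lower at an unadjusted p under 0.05, CD48 among them, and ITGB2, CD44 and ITGB1 at 0.47, -0.25 and 0.06. The 15 NADPH oxidase and antimicrobial genes had a median of 0.15, with SOD1, RAC2 and PLAUR at -0.18, 0.43 and -0.52. The 8 S100 genes had a median of -0.15, with S100A11, S100A4 and S100A6 at -0.34, -0.33 and -0.71. In the glycolysis, mitochondrial, survival, NADPH oxidase and S100 lists, 0 members had an unadjusted p under 0.05. Of 26 lists, 7 kept the sign of their median in all 18 alternatives, which share most of their libraries. They were the subunit, IkB family, noncanonical pathway, promyelocyte granule, proliferation, immediate early, and lysosome and autophagy lists. The subunit list counts RELA, for which no fitted fold is given here. The noncanonical median, -0.07, came as near 0 as -0.016.

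**Figure D5:**
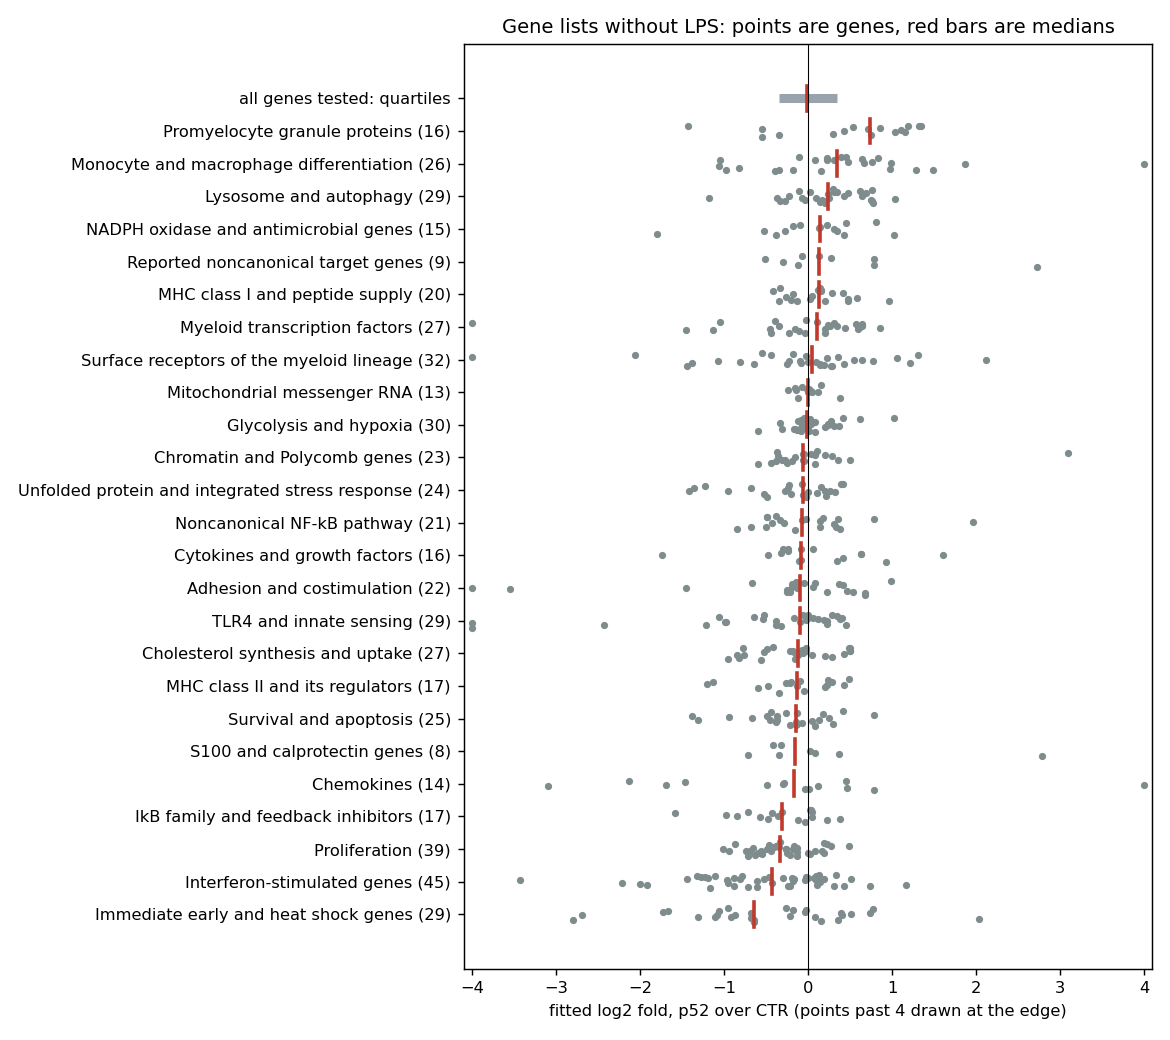
Fitted log2 fold of p52 over CTR (horizontal axis) for the members tested of each gene list, with the number tested in brackets; grey points are genes, red bars are medians, and the bar at the top spans the quartiles of all genes tested. The proliferation median lies at -0.33 and the lysosome median at 0.24, beside -0.02 over all genes.

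A second comparison, free of control libraries, set the p52 clones against the mean of the p50, cREL and RELB knockouts, each with 1 clone in batch A and 1 in batch B. Of 17369 genes, 0 (0%) passed by edgeR, and 413 (2.38%) had an unadjusted p under 0.05, 240 higher (1.38%) and 173 lower (0.996%). DESeq2 called 0 as well, and 9050 genes (52.1%) had a log2 fold above 0. The proliferation list had a median of -0.12 here, with 2 of 39 lower and 0 higher at an unadjusted p under 0.05. The lysosome and autophagy list had a median of 0.04, with 0 of 29 at an unadjusted p under 0.05. BMP1, a procollagen protease, stood at 63.4 and 70.0 CPM in p52 clones, above the 6 other knockout clones, whose lowest, median and highest values were 27.7, 31.6 and 50.9 CPM. LIMD2, a LIM domain protein, stood at 15.1 and 9.3 CPM in p52 clones, against 0.70, 1.53 and 4.07 CPM as the lowest, median and highest of the others. Both separated the groups, with log2 folds of 0.93 and 2.98. The genes named for this comparison were picked for low p in it, so separation is a description. The share of all genes that separate here was not computed. VIM, the intermediate filament vimentin, and EPHA1, a receptor kinase, had log2 folds of 0.73 and 0.91, and at least 1 p50 clone reached the lower p52 value in each. On the lower side, NXPE3 stood at 102 and 86.9 CPM in p52 clones, against 116, 157 and 248 CPM as the lowest, median and highest of the others, and its log2 fold was -0.75. CXCL8, at 33.8 and 27.4 CPM in the same p52 libraries as above, was below the 6 p50, cREL and RELB clones. Their lowest, median and highest values were 42.2, 54.0 and 123 CPM. The log2 fold of CXCL8 was -0.96 ± 0.25 (SE), with an adjusted p by edgeR of 1.00. IPCEF1 and PSIP1, which encodes the chromatin protein LEDGF, had log2 folds of -1.71 and -0.72, and their ranges overlapped.

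The knockouts share the CTR libraries, so the values against CTR are set side by side only. For CCL2 the log2 fold against CTR was -3.10 in p52 clones, -2.54 in p50, -3.41 in cREL, -2.09 in RELB and -3.34 in p65 clones. In the comparison without controls, CCL2 of p52 clones differed from the other 3 knockouts by -0.41 ± 0.44 (SE). For CXCL8 the values against CTR were -1.69 in p52, -0.86 in p50, -1.20 in cREL, -0.16 in RELB and -1.64 in p65 clones. For MST1 they were 1.75 in p52, 1.29 in p50, 0.99 in cREL, 1.89 in RELB and 1.10 in p65 clones, and the difference without controls was 0.36 ± 0.23 (SE). The p65 values include the library labelled p65 replicate 1, whose RELA level goes against its label, and the 3 control libraries are common to all 5 values of each gene.

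The same clones treated with LPS gave a second library each, which is not an independent clone. The edgeR fit over 28 libraries had no clone term and took both libraries of a clone as independent. Its p-values, for each condition and for their difference, therefore do not measure the spread between clones alone. In the fit over 28 libraries, edgeR called 13 of 18624 genes (0.0698%) between p52 and CTR with LPS and 0 without it, where 1416 had an unadjusted p under 0.05. The test of the difference between the 2 conditions called 0 genes, with 474 at an unadjusted p under 0.05. Of the 16 genes described one by one, 4 passed with LPS. They were picked for low p in the same clones, so this is no independent support. CCL2 had a log2 fold of -4.78 ± 0.63 (SE) with LPS and an adjusted p of 0.00538 by edgeR. CSF2RB, PRXL2A and MST1 had log2 folds of -1.25, 2.09 and 1.63 with LPS, with edgeR's adjusted p at 0.0126, 0.0135 and 0.0302.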

How the data were processed

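PolyA RNA of U937 clones was amplified by PCR without molecular identifiers, per the labels' protocols. The authors deposited estimated counts, TPM and effective lengths per gene; FastQC 0.11.7, Salmon 0.11.3 and GRCh38 are named in the submitters' processing notes, while no source used here names the annotation or the gene summarisation. Deposited estimated counts were rounded to whole numbers; deposited TPM values were used for levels only and deposited effective lengths, in bases, for one alternative. CPM are TMM-scaled.

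Genes passed edgeR's filterByExpr (count of at least 10, total of at least 15), which left 17369 of 56809. edgeR 4.0.16 (R 4.3.3) fitted a robust quasi-likelihood model to the 14 untreated libraries, 1 per clone, with 6 genotypes and batch, leaving 6 residual degrees of freedom; p-values were adjusted by Benjamini-Hochberg, threshold 0.05. DESeq2 1.42.0 and limma 3.58.1 were alternatives. The fit was tested on simulated data. Named genes are the 5 subunit genes; the 8 genes of lowest unadjusted p in each direction with a mean of at least 5 CPM, since none passed; 4 in each direction for the second comparison; and the 3 members of highest TPM in each list. Genes of a list at an unadjusted p under 0.05 are named besides, except some that are not reported here. Members, lists and tests were chosen with earlier results of these data known. Positions are from the GENCODE annotation of GRCh38. Replicate numbers were not taken to pair clones in the main fit. Nothing says that clones were cultured apart in time, so p-values of the main fit measure the spread between clones. The edgeR fit over 28 libraries had no clone term, so its p-values do not allow for the link between libraries of a clone. With voom that link was estimated as a correlation of 0.355. Fewer cells of a type and less RNA per cell cannot be told apart in bulk RNA.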

Additional observations from a re-analysis of the deposited data

How the results depend on the processing

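For p52 against CTR, edgeR's 0 calls became 12 with DESeq2 (4 higher, 8 lower; 7 of them among the 16 named genes), 2 with limma with voom and the clone as a random effect (1 higher, 1 lower) and 76 with no filter on low counts (30 higher, 46 lower); the cause was not tested. The 839 genes at an unadjusted p under 0.05 became 1416 over all 28 libraries, 1330 in batches A and B alone, 1320 with voom, 1427 with no filter and 543 at a mean of at least 5 CPM, where fewer genes were tested. Leaving out 1 p52 or CTR library gave 0 to 1 calls and 421 to 984 genes at an unadjusted p under 0.05, fewest without CTR replicate 2 (421) and p52 replicate 2 (487), with the 1 call, higher, without CTR replicate 3; without the library labelled p65 replicate 1, TM4SF1 was the 1 call, lower. Where p52 is left with 1 clone, that clone is assumed to vary like the others. Without the library labelled p65 replicate 1, the 839 became 1146. The log2 folds of NFKB2 and NFKB1 were then -1.44 and -0.45. For p52 against p50, cREL and RELB, no filter gave 55 calls (33 higher, 22 lower) and 932 genes at an unadjusted p under 0.05, and the 413 became 672 over 28 libraries, 685 with voom and 207 at 5 CPM; leaving out 1 library gave 0 to 2 calls, the 2 (both higher) without p50 replicate 1, and 275 (without p52 replicate 2) to 669 (without p50 replicate 1). The log2 fold of NFKB1, -0.29, was 0.0139 over 28 libraries and 0.0818 with voom, and that of NFKB2, -0.94, ranged between -1.78 and 0.0552 when 1 library was left out; the cause was not tested. With the replicate block there were 0 calls in both comparisons and 909 and 456 genes at an unadjusted p under 0.05. The pairing check gave correlations of 0.00134 for the replicates numbered 1 and -0.0626 for those numbered 2. With only 2 p52 clones, their deviations from the group mean mirror each other, and same-numbered clones were in different batches. The check therefore cannot decide whether the numbers pair clones. The 2 p52 and 3 CTR clones limit what can be detected, as does a single CTR clone in a batch shared with p52.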
